A study of Solanum lycopersicum with 2 samples.

Results

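The genes described here are those in the gene-poor stretches of the tomato (Solanum lycopersicum) chromosomes, measured by RNA sequencing in young primary leaves. Chromosomes 1 to 12 were divided into 1 Mb windows by the start of each locus, and the loci carrying a gene were counted in each window. A sparse window held 1 to 8 such loci, and the loci with exactly 1 gene in these windows, 1241 of the 22315 loci in the table and of the 16837 single-gene loci on the 12 chromosomes, are called sparse-window genes. They were compared with 13162 single-gene loci in dense windows of 40 or more gene loci. Leaves came from seedlings of 2 genotypes, plants overexpressing the gene SlRBZ (library OV-5-1) and wild type (library CK-1), with 1 library each. The promoter driving the transgene, the cultivar and the age of the seedlings are given in none of the sources used here, nor is it stated whether a library pooled several plants. The series describes its comparison as made in duplicate, and a second library of either genotype was not analysed here. With 1 library per genotype no difference has a replicate check, and none was tested.

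In tomato, as in many plants, genes crowd toward the chromosome ends, while a broad block around each centromere is packed into heterochromatin, is rich in transposable elements, and rarely takes part in crossing over. Genes inside such blocks are known to be few but often active, and their introns can be lengthened by inserted repeats. The table places no centromeres, so the windows are described by their listed gene loci alone. A window whose genes are mostly not listed, or are joined in few loci, can also count as sparse.

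Values are FPKM, fragments per kilobase and per 1 M (mega) fragments, a scale that allows levels of different genes to be compared. Low values moved in steps of whole fragments, which gave scaling totals of 14.2 M in the overexpressor library and 7.47 M in the wild-type library, a ratio of 1.91. At an effective length of 1 kb, 3 fragments were worth 0.211 FPKM in the overexpressor and 0.402 FPKM in wild type. As a check of the tissue, all 7 leaf mesophyll markers (Rubisco small subunit, light-harvesting and photosystem genes) were present, between 5127 and 121997 FPKM in wild type and between 305 and 18085 FPKM in the overexpressor. Of the pollen, fruit, meristem and flower markers, E4 alone stood in the table, at 38.6 and 21.4 FPKM. Markers were matched by gene symbol alone, and most loci carry an identifier instead, so the absence of the others does not check the tissue. Leaf tissue is a mixture, so fewer cells of a type and less RNA per cell cannot be told apart in any value given here.

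Sparse windows made up 51.0% of the genome's 766 windows but held 7.37% of its single-gene loci. There were 391 of them, against 180 dense windows (23.5%) holding 78.2% of the single-gene loci, 134 intermediate windows, and 61 windows with no gene locus. Of the sparse-window genes, 1149 (92.6%) lay between the first and the last dense window of their chromosome. The exceptions were all 87 on chromosome 2, which lay before its first dense window, 3 beyond the last dense window of chromosome 4 and 2 beyond that of chromosome 8. Sparse windows scattered along a chromosome would also meet this measure, so it does not place the genes near a centromere. The longest unbroken run of windows with at most 8 gene loci reached from 7 to 62 Mb on chromosome 1, 55 windows with 113 of that chromosome's 119 sparse-window genes. On chromosome 7 a run of 39 windows (9 to 48 Mb) held 103 of 106, and on chromosome 8 a run of 37 windows (8 to 45 Mb) held 86 of 93. Chromosome 3 had the most broken pattern, with a longest run of 9 windows and 20 of 88 genes in it. Chromosome 9 contributed the most genes, 149, and chromosome 6 the fewest, 37.

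**Figure D1:**
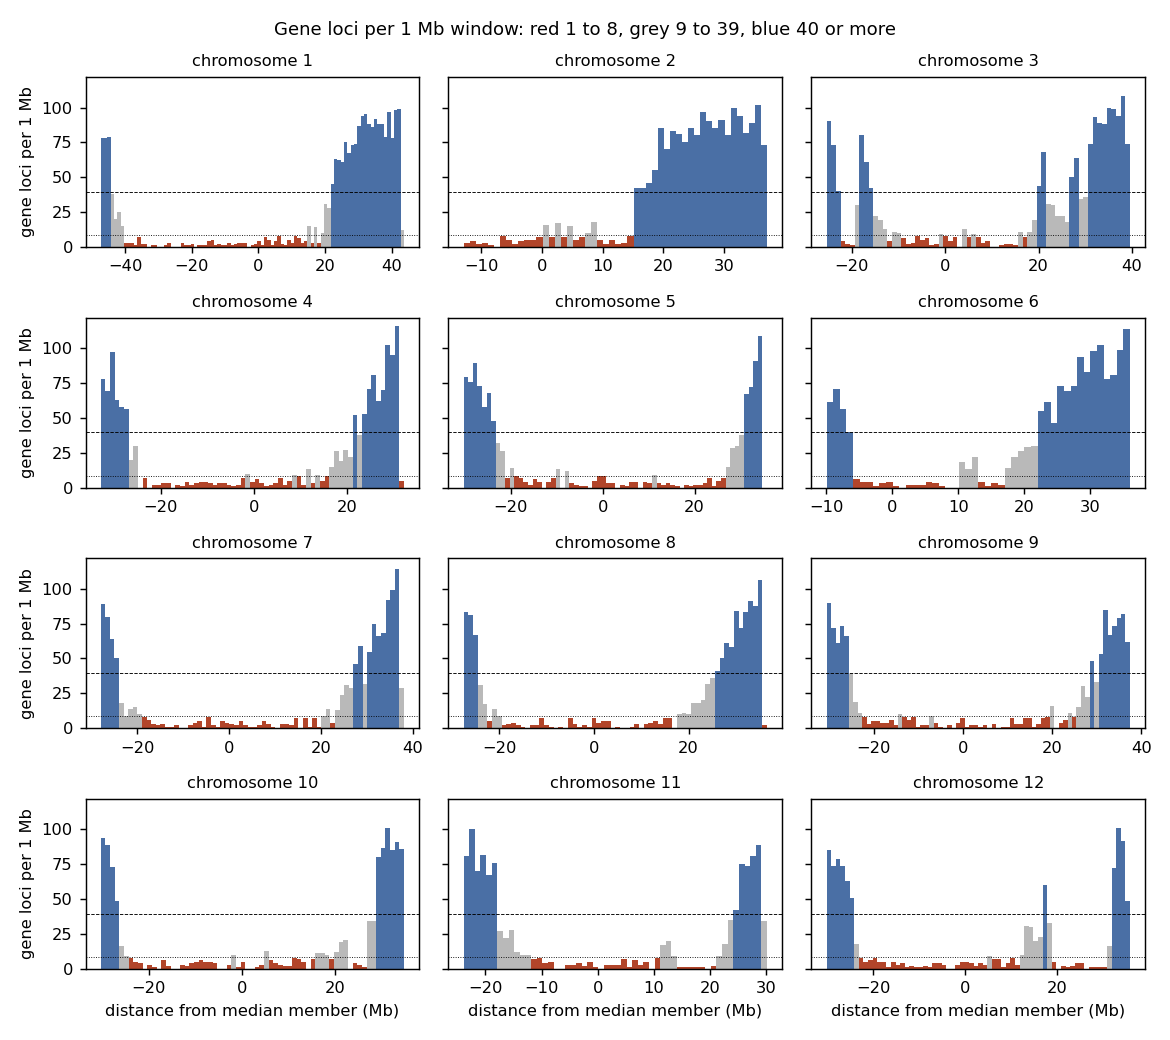
Number of gene loci in each 1 Mb window (vertical axis) of chromosomes 1 to 12, against the distance in Mb from the chromosome's median sparse-window gene (horizontal axis). Red bars hold 1 to 8 loci, grey 9 to 39 and blue 40 or more, with dotted and dashed lines at the limits. Dense windows lie on both sides of most sparse windows on every chromosome except chromosome 2, where the sparse windows lie on 1 side.

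Gene-poor surroundings did not go with low expression in these leaves. The median level of the sparse-window genes was 16.1 FPKM in wild type and 15.6 FPKM in the overexpressor, next to 15.7 and 15.5 FPKM for dense-window genes. The mean over both libraries had quartiles of 7.21 and 38 FPKM in sparse windows and of 6.99 and 41.4 FPKM in dense windows. Values under 5 FPKM made up 17.9% of sparse-window and 17.5% of dense-window genes, and values of at least 1000 FPKM made up 1.37% and 1.57%. Of the 1241 genes, 1232 reached a mean of 1 FPKM, the limit for computing differences, and 9 did not. The table lists expressed loci, and genes it does not hold were not analysed here, so these levels describe listed genes and not the share of genes that are on. By gene count, levels were lowest in the emptiest windows: genes in windows of 1 or 2 loci had a median of 13.6 FPKM, against 16.5 FPKM in windows of 3 or 4 and 16.5 FPKM in windows of 5 to 8.

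Span, the distance from the start to the end of a locus with its introns, differed between the sets far more than level did. The median span was 4414 bp in sparse and 3829 bp in dense windows, a ratio of 1.15, and the upper-tail values, which 90 in 100 loci stay below, were 14742 and 8806 bp, a ratio of 1.67. Both ends of the range were fuller in sparse windows. Spans of 8 kb or more made up 26.3% of sparse-window and 13% of dense-window genes, and spans of 20 kb or more 6.04% and 0.836%. Spans under 1 kb made up 11.1% and 7.28%, and spans under 400 bp 1.93% and 0.760%. The tail followed gene density in steps, the same upper-tail value being 16610 bp in windows of 1 or 2 loci, 15133 bp with 3 or 4, 13597 bp with 5 to 8, 13074 bp with 9 to 19, 10611 bp with 20 to 39 and 8470 bp with 80 or more. These numbers are a property of the table's coordinates, and the table does not separate exons from introns.

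**Figure D2:**
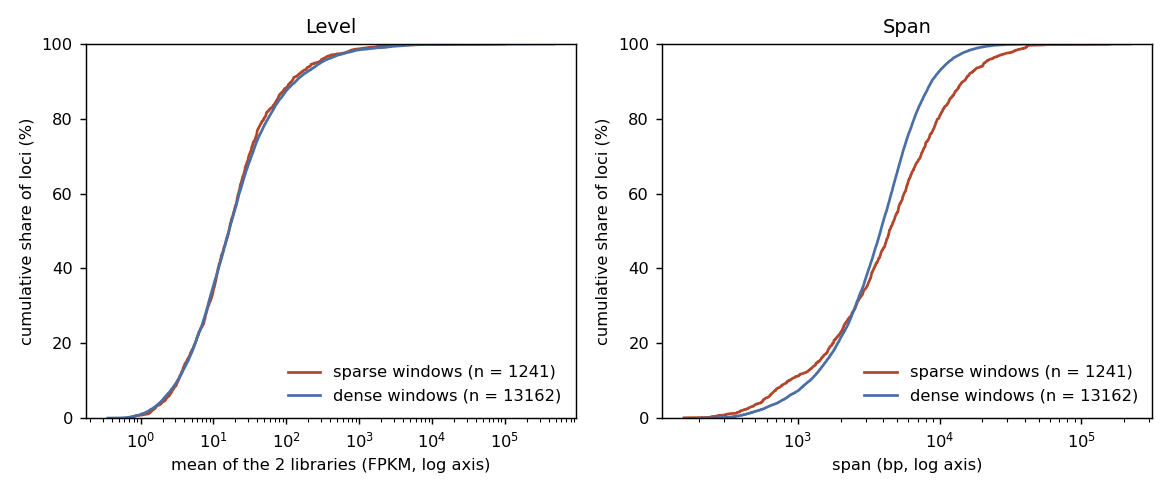
Cumulative share of loci (%) against the mean FPKM of the 2 libraries (left, log axis) and against span in bp (right, log axis), for sparse-window genes (red, n = 1241) and dense-window genes (blue, n = 13162). The level curves lie almost on each other, while the span curves cross, with medians of 4414 and 3829 bp and with 90% of loci below 14742 and 8806 bp.

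The longest loci were expressed at ordinary levels. Solyc02g050330.1 (chromosome 2, plus strand, 25746921 to 25906922) spanned 160002 bp and read 40.9 FPKM in wild type against 39 in the overexpressor. Solyc04g026200.2 (chromosome 4, plus strand, 25106257 to 25261132) spanned 154876 bp and read 12.6 and 23.4 FPKM, 1.79-fold higher in the overexpressor. It overlapped another gene locus, as 37 sparse-window genes (2.98%) did, and whether reads were assigned by strand is not given in the sources used here. On chromosome 5, Solyc05g025740.2 (57956 bp) read 8.20 and 7.85 FPKM, and Solyc05g017890.2 (54287 bp) read 34.7 and 19 FPKM. None of these 4 loci differed by 2-fold as deposited, and Solyc04g026200.2 did so at equal upper quartiles. Over all 75 sparse-window genes of 20 kb or more, 2 rose by at least 2-fold in the overexpressor and 10 fell by as much, with a median difference of −0.08 on the log2 scale. Of 110 dense-window genes of that length 10 rose and 13 fell by 2-fold, and over all gene loci the shares were 11.6% and 15.0%.

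Sparse-window genes were also distant from one another, as the rule requires. The gap to the nearest other gene locus had a median of 43828 bp and quartiles of 8369 and 128767 bp, against a median of 1657 bp for dense-window genes. Gaps of at least 100 kb surrounded 387 genes (31.2%), and the widest was 1790437 bp. At the lower quartile the neighbour was nevertheless 8369 bp away, so the windows held pairs and small clusters as well as lone genes. Level and gap were not ordered. Genes with a gap under 10 kb had a median level of 15.3 FPKM, those from 10 to 50 kb 16.7, those from 50 to 200 kb 16.3 and those beyond 200 kb 16.7 FPKM.

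Gene identifiers ending in version 1 made up a larger share of sparse-window than of dense-window genes, 503 of 1241 (40.5%) against 27.2%. In sparse windows they were shorter and lower, with a median span of 2869 bp and a median level of 12.4 FPKM, against 5316 bp and 17.6 FPKM for the 694 with version 2. In dense windows the medians were 2523 bp and 12 FPKM for version 1, and 4328 bp and 17.3 FPKM for version 2. What the versions stand for is not stated in the table. These shares and medians mix chromosomes, and versions were not compared within a chromosome. All identifiers of the sparse-window genes on chromosomes 10 and 11 ended in version 1. So did all those checked on chromosome 12, which include its whole plus strand. Chromosome 10 held 9.91% of sparse-window genes against 6.15% of dense-window genes. Chromosome 11 held 6.20% against 6.12%, and chromosome 12 held 9.91% against 5.83%. Strand was even, with 643 genes on the plus and 598 on the minus strand.

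Between the genotypes, sparse-window genes moved much as dense-window genes did. Differences are those of log2(FPKM + 1), wild type subtracted from the overexpressor, and were taken where the mean reached 1 FPKM. A gene is called higher or lower once its difference reaches 1 on this scale, which is 2-fold. Every fold between the genotypes is a ratio of FPKM + 1, which falls short of the ratio of FPKM where values are low. Of 1232 sparse-window genes, 120 (9.74%) were called higher and 193 (15.7%) lower. Among all 17631 gene loci 11.6% were called higher and 15.0% lower, and among the 13031 dense-window genes 11.7% and 14.9%. The higher calls include 26 sparse-window and 166 dense-window genes listed at 0 in wild type, which always pass the limit at this filter. With loci at 0 in either library left out, 7.80% of sparse-window and 10.6% of dense-window genes were higher, and 15.9% and 15.0% lower. The median difference was −0.07 in sparse windows, with quartiles of −0.64 and 0.40, and −0.06 in dense windows, with quartiles of −0.59 and 0.47. Differences of 4-fold or more were reached by 44 sparse-window genes upward (3.57%) and 48 downward (3.9%), and by 3.44% of dense-window genes in each direction. The shares called in sparse windows therefore lay near the background.

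The split of higher against lower calls depended on the scaling in both sets alike. With wild type scaled to equal upper quartiles, 13.4% of sparse-window genes were higher and 11.6% lower, against 15.2% and 10.7% of dense-window genes, and the median over all gene loci moved to 0.18. Scaled without the 100 most abundant gene loci, the shares were 23.9% and 6.82% in sparse and 26.0% and 6.22% in dense windows, with a median of 0.54 over all gene loci. At equal sums over all loci, 93.5% and 93.3% were higher, with a median of 2.24 over all gene loci, and 0.162% of sparse-window genes were lower. Under each of these scalings the sparse-window median stood a little below the dense-window median, at 0.15 and 0.18, at 0.52 and 0.54, and at 2.18 and 2.24. Each direction given below is for FPKM as deposited, and at equal sums no gene named below as lower by 2-fold kept that call except Solyc03g065200.2 and the locus listed at 0 in the overexpressor.

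**Figure D3:**
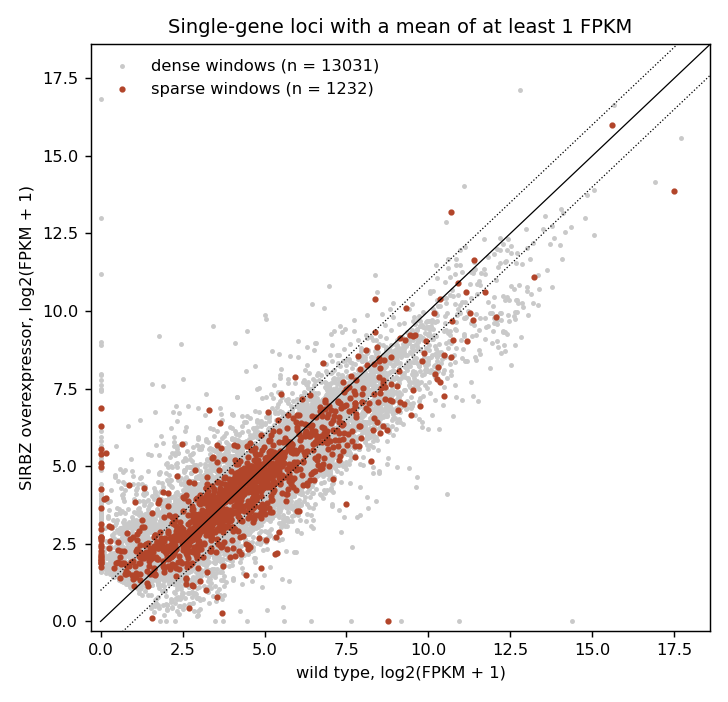
Level of each single-gene locus whose mean reached 1 FPKM, in wild type (horizontal) and in the SlRBZ overexpressor (vertical), both as log2(FPKM + 1). Sparse-window genes (red, n = 1232) lie within the cloud of dense-window genes (grey, n = 13031), and the dotted lines mark 2-fold differences on either side of equality.

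The direction of the difference went with the level of the gene. Among sparse-window genes with a mean of 1 to 5 FPKM the median difference was 0.46, with 24.9% higher and 4.69% lower. From 5 to 20 FPKM it was 0.01, with 8.09% higher and 10.2% lower, and from 20 to 100 FPKM it was −0.27, with 5.61% higher and 17.6% lower. At 100 FPKM or more, 145 genes had a median of −0.90, with 4.14% higher and 44.8% lower. Dense-window genes showed the same order, with medians of 0.44, 0.02, −0.19 and −0.62, and with 39.3% lower in the top class. Of 17 sparse-window genes at 1000 FPKM or more, 10 were lower and 1 was higher, against 120 lower and 10 higher of 206 in dense windows. The level classes use the same libraries as the difference, so they describe the pattern and do not test it. The part of sequencing depth was not tested. Depth itself was not measured, and the fitted scaling totals differed 1.91-fold between the libraries.

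Span went with the calls in another way, since long loci were called less often. Among sparse-window genes under 1 kb, 17.4% were higher and 16.7% lower, and from 1 to 3 kb 16.1% and 16.8%. From 3 to 8 kb the shares were 7.26% and 16.4%, and at 8 kb or more they were 4.59% and 13.1%. The share higher thus fell across these classes, while the share lower changed little. In dense windows 20.6%, 16%, 9.03% and 7.02% were higher in the same 4 classes. The shares lower there were 17.6%, 16.8%, 14.4% and 10.6%, so in dense windows they fell with span too. Level moved with span as well, from a median of 11.5 FPKM under 1 kb to 19.8 FPKM at 3 to 8 kb. Within the level class of 5 to 20 FPKM, 15.5% of sparse-window genes under 3 kb were higher, against 4.71% at 3 to 8 kb and 4.46% at 8 kb or more.

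**Figure D4:**
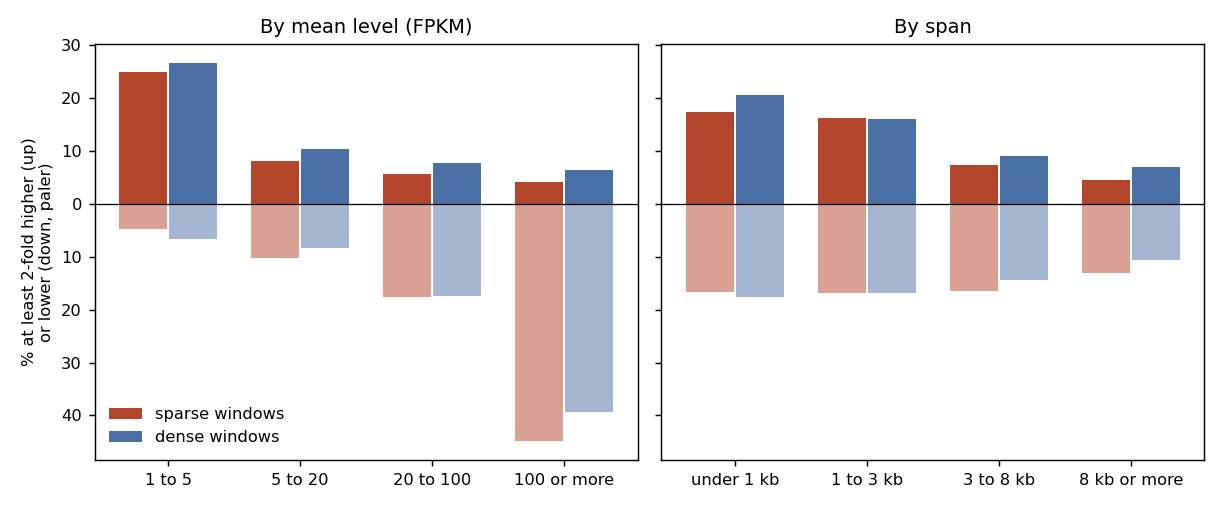
Share of loci (%) at least 2-fold higher (bars upward) or lower (paler bars downward) in the overexpressor, by class of mean FPKM (left) and of span (right), for sparse-window (red) and dense-window genes (blue). Lower calls rise with level to 44.8% and 39.3% at 100 FPKM or more, and higher calls shrink with span to 4.59% and 7.02% at 8 kb or more.

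The median difference stayed near 0 across window counts and chromosomes, while the shares called varied more. Windows of 1 or 2 loci had a median of 0.03, with 8.33% higher and 15.1% lower, windows of 3 or 4 loci −0.10, with 8.96% and 15.1%, and windows of 5 to 8 loci −0.09, with 10.5% and 16.1%. At the limit of the rule, the 185 genes in windows of 8 loci read a median level of 17.3 FPKM, a span of 3833 bp and a difference of −0.08, and the 104 in windows of 9 loci read 15.8 FPKM, 5211 bp and −0.08. Medians per chromosome ran from −0.17 on chromosome 6, with 8 genes higher and 8 lower of 37, to 0.01 on chromosome 1, with 11 higher and 15 lower of 118.

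The largest falls included one of the most abundant leaf transcripts. Solyc04g050820.1 (chromosome 4, plus strand, 47644936 to 47646682) read 184394 FPKM in wild type against 14991 in the overexpressor, 12.3-fold lower. That locus alone held 53.7% of the FPKM of all sparse-window genes in wild type and 42.6% in the overexpressor, so sums over the set follow it. Solyc09g060100.2 (chromosome 9, plus strand, 53199259 to 53204672) read 177 and 12.9 FPKM, 12.8-fold lower, and overlapped another gene locus. Solyc12g019550.1 (chromosome 12, plus strand, 10628016 to 10629044) fell from 1422 to 152 FPKM, 9.27-fold. Lower starting levels were seen in the other 3 of the 6 largest falls. Solyc03g065200.2, alone in its window on chromosome 3 (37712528 to 37720423), read 12.1 and 0.211 FPKM. The latter is what 3 fragments are worth at 1 kb in the overexpressor, so this fall rests on few overexpressor fragments. Solyc03g013290.1 (chromosome 3, 4054910 to 4055505) read 41.1 and 3.57 FPKM, and Solyc05g015800.2 (chromosome 5, 12077217 to 12079028) read 28.5 and 2.29 FPKM. No symbol is attached to any of these loci.

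In the other direction, the 6 largest rises among genes above 0 in both libraries started from 8.91 FPKM or less. Solyc05g015060.2 (chromosome 5, plus strand, 9773362 to 9775220) read 0.115 FPKM in wild type against 42.3 in the overexpressor. It was 38.8-fold higher as a ratio of FPKM + 1, and overlapped another gene locus. Solyc01g011430.2 (chromosome 1, minus strand, 9218926 to 9221367) read 0.0854 and 14.3 FPKM, and Solyc09g015530.2 (chromosome 9, minus strand, 9627161 to 9636797) read 0.121 and 14.7 FPKM, each about 14-fold higher. All of these wild-type values lie below the 0.402 FPKM that 3 fragments are worth at 1 kb, so the folds rest on very few wild-type fragments. Solyc06g011350.2 (chromosome 6, 6572048 to 6573930) read 0.830 and 20.02 FPKM. Solyc05g016060.2 (chromosome 5, 14383639 to 14385313), with 4.64 and 51.4 FPKM, had the firmest base, 9.29-fold higher. Solyc03g046380.1 (chromosome 3, 16382948 to 16383193) read 8.91 and 112 FPKM over a span of 246 bp, a length at which a few fragments weigh heavily.

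An exact 0 was listed for 33 sparse-window genes in wild type (2.66%) and for 1 in the overexpressor, and for 1.52% of dense-window genes in wild type. A listed 0 can be a failed estimate and carries no fold. The exception in the overexpressor was Solyc07g024010.1 (chromosome 7, plus strand, 23836950 to 23837850), at 435 FPKM in wild type and listed at 0. Of those listed at 0 in wild type, Solyc10g050750.1 (chromosome 10, minus strand, 45938670 to 45941292) reached 117 FPKM in the overexpressor. Solyc12g036920.1 (chromosome 12, 33515440 to 33515935) reached 77.0 and Solyc09g015650.2 (chromosome 9, 10580626 to 10587349) 46.4 FPKM. Most were far lower, with a median of 3.8 FPKM in the overexpressor. The part of the lower scaling total of the wild-type library in these zeros was not tested.

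The most abundant sparse-window genes moved apart. ARPI (chromosome 11, plus strand, 13312527 to 13313546) read 49808 FPKM in wild type against 64587 in the overexpressor, 1.30-fold higher. SEND33, a chloroplast ferredoxin gene (chromosome 10, minus strand, 22136043 to 22137002), was 4.42-fold lower at 9620 and 2174 FPKM. Ferredoxin carries electrons from photosystem I to the enzymes that use them. Solyc04g039730.2 (chromosome 4, plus strand, 30322041 to 30327080) was the 1 gene at or above 1000 FPKM called higher, with 1663 and 9380 FPKM, 5.64-fold. Solyc06g019200.2 (chromosome 6, minus strand, 14497184 to 14501561) was 4.75-fold lower at 4269 and 897 FPKM, and Solyc09g061710.2 (chromosome 9, minus strand, 55796984 to 55801405) read 2671 and 3170 FPKM, 1.19-fold higher. So 3 of the 6 were at least 2-fold lower, counting Solyc04g050820.1, and 1 was higher.

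Genes that were the only gene locus of their window included abundant ones, and the 6 with the highest mean are given here. The highest was Solyc01g013900.2 (chromosome 1, 10348095 to 10348362), a locus of 268 bp with 803705 bp to its nearest gene locus, at 1305 FPKM in wild type against 1331 in the overexpressor. TPX1, a peroxidase gene (chromosome 7, plus strand, 14295272 to 14300912), lay 737945 bp from the nearest gene locus and read 214 and 121 FPKM, 1.76-fold lower. Of the other 4, Solyc10g062340.1 changed least, at 149.5 and 133 FPKM, and the others were about 3-fold lower. Those were Solyc04g025040.1 (469 and 137 FPKM), Solyc11g039470.1 (323 and 92.6 FPKM) and Solyc09g031970.2 (234 and 77.5 FPKM). Solyc11g039470.1 spanned only 315 bp, where the same limit holds. Solyc09g031970.2 fell short of 2-fold when scaled without the 100 most abundant gene loci.

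A gene symbol stood at 44 sparse-window genes (3.55%), against 5.55% of dense-window genes. Of the 43 whose mean reached 1 FPKM, 4 (9.30%) were called higher and 3 (6.98%) lower, with a median difference of −0.23, beside a background of 11.6% and 15.0%. A reference gene table held 41 of the 44 symbols, 39 of them on the same chromosome, with ACI39 and CHI2 on another.

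Several regulators of light responses carried a symbol. PHYA and PHYB1, photoreceptors for far-red and red light, lay on chromosome 10 (22853105 to 22859472) and chromosome 1 (61760671 to 61767869). PHYA read 13.8 FPKM in wild type against 19.3 in the overexpressor, and PHYB1 read 35.8 and 25.7. HY5, the bZIP factor that promotes greening and seedling development in light (chromosome 8, 43956466 to 43959939), read 42.3 and 69.5 FPKM, 1.63-fold higher. DET1 and DDB1, partners in a ubiquitin ligase complex that represses light responses, read 21.8 and 17.9 FPKM and 24.8 and 28.9 FPKM, and were named after their values were seen. None of these 5 genes differed by 2-fold as deposited, while HY5 and PHYA did so, as higher, when scaled without the 100 most abundant gene loci.

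Genes tied to defence and stress were grouped likewise by what their symbols name. CHI2, whose symbol names a chitinase (chromosome 2, 27867963 to 27869757), read 0.221 and 5.09 FPKM, 4.99-fold higher as a ratio of FPKM + 1. The reference gene table places this symbol on another chromosome, so what the locus encodes is uncertain. The wild-type value of CHI2 lay below the worth of 3 fragments at 1 kb. NIM1, a relative of the Arabidopsis salicylic acid co-activator NPR1 (chromosome 7, 46706989 to 46722544), read 11.4 and 18.5 FPKM. MLO1, whose loss confers resistance to powdery mildew (chromosome 4, 38700445 to 38705951), read 27.2 and 36.1 FPKM. Only CHI2 of these passed 2-fold as deposited, and NIM1 and MLO1 did so when scaled without the 100 most abundant gene loci. RNASELER, an S-like ribonuclease gene (chromosome 9), read 96.0 and 57.2 FPKM. SAP3, a stress-associated zinc finger protein gene (chromosome 1, 11758287 to 11760475), read 42.0 and 88.8 FPKM, 2.09-fold higher.

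Hormone and signalling genes differed in both directions. NCED2, a dioxygenase of abscisic acid synthesis (chromosome 8, 8634393 to 8636172), read 28.8 and 62.8 FPKM. EBF2, an F-box gene whose Arabidopsis relative removes the ethylene factor EIN3 (chromosome 8, 42768223 to 42771708), read 76.9 and 43.5 FPKM, 1.75-fold lower. TCP24, a leaf development factor of the TCP family (chromosome 8), read 38.2 and 21.8 FPKM. The first of these was called higher and the others were under 2-fold. PP2AC2, a phosphatase catalytic subunit, read 37.0 and 50.8 FPKM, and SLGLR3.4, a glutamate receptor-like channel gene, read 10.2 and 6.33 FPKM. SUMO, the small modifier that is attached to other proteins (chromosome 9, 52556120 to 52559741), was 2.27-fold lower at 218 and 95.6 FPKM, a call that was lost at equal upper quartiles.

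Several enzymes were among the symbols of the naming rule, grouped here after their values were seen. AGP-S2, a subunit of ADP-glucose pyrophosphorylase in starch synthesis (chromosome 7, 11193230 to 11198373), was 2.24-fold lower at 27.8 and 11.9 FPKM, a call also lost at equal upper quartiles. RCCR, a reductase of chlorophyll catabolites (chromosome 3), read 45.5 and 25.4 FPKM. SFR2, a galactolipid-remodelling enzyme of the chloroplast envelope known from Arabidopsis (chromosome 1, 58325615 to 58342272), read 25 and 14.4 FPKM. These 3 genes act in plastids, and the first alone passed 2-fold. PRO2, an enzyme of proline synthesis, read 33.4 and 20.3 FPKM, and CEL7, an endoglucanase gene, read 6.48 and 3.40 FPKM. GPS, a geranyl diphosphate synthase gene, read 29.4 and 44.6 FPKM, and HMG2, a hydroxymethylglutaryl-CoA reductase gene, read 1.67 and 3.29 FPKM. Both of these isoprenoid genes were under 2-fold as deposited, and both were called higher when scaled without the 100 most abundant gene loci, as PP2AC2 and ARPI were. SGS3, which acts in RNA silencing, read 32.3 and 24.5 FPKM.

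The remaining symbols of the naming rule were AIL, the third largest difference at 9.67 and 38.2 FPKM (3.67-fold higher), SLMRPK2 (7.66 and 14.3 FPKM), CS1 (207 and 111), CEN12_5 (25.5 and 14.0), LESSR1 (98.0 and 59.1) and LESMET (14.1 and 9.50). All but AIL were within 2-fold as deposited, and SLMRPK2 was called higher at equal upper quartiles and without the 100 most abundant gene loci. A further 12 symbols with the smallest differences, between −0.31 and 0.36, lay outside the rule and were read after their values were seen. They included housekeeping genes such as the ubiquitin gene UBI3 (1153 and 984 FPKM) and the small GTPase gene RAN1 (178 and 177 FPKM). XRN4, an exoribonuclease gene of 41482 bp, read 9.78 and 10.1 FPKM.

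**Figure D5:**
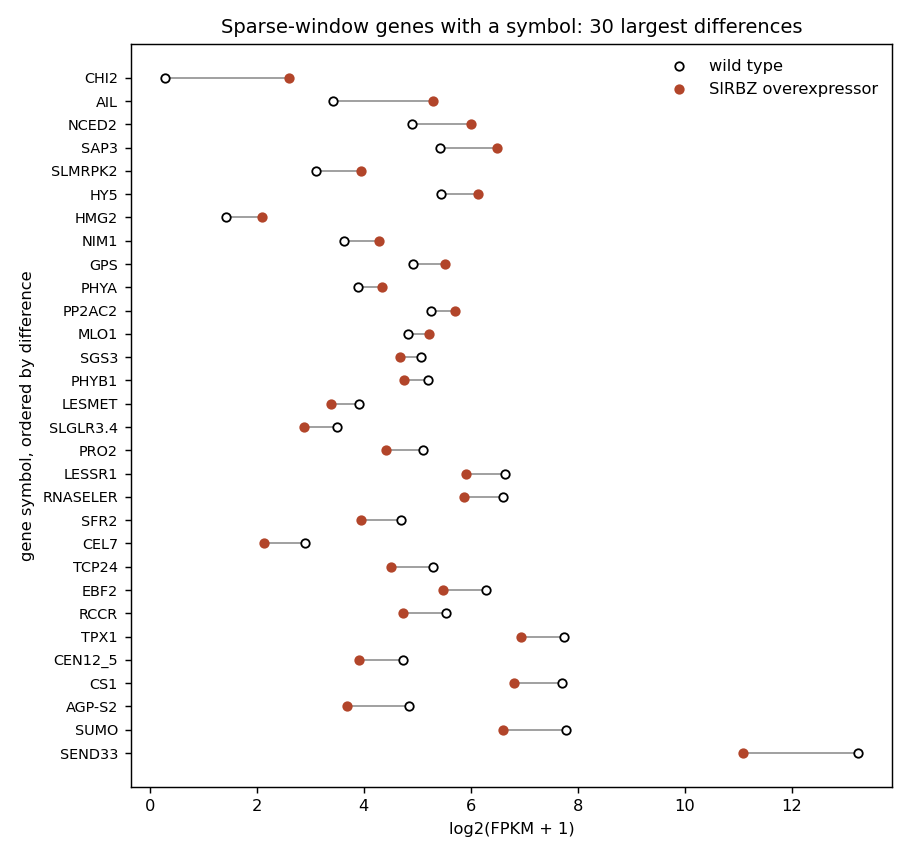
Levels of the 30 symbol-bearing sparse-window genes that differed most, as log2(FPKM + 1) in wild type (open circles) and the SlRBZ overexpressor (red), ordered by their difference from CHI2 (2.32) to SEND33 (−2.15). Most pairs of points are under 2-fold apart, with 4 genes at least 2-fold higher and 3 at least 2-fold lower.

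Window by window, differences centred near 0. In 145 windows with at least 4 tested sparse-window genes, the median difference was above 0 in 63 and below 0 in 82, with quartiles of −0.37 and 0.16. It reached 1 in 2 windows and −1 in 5. The lowest was the window from 20 to 21 Mb on chromosome 11, where 3 of 4 genes were lower (median −1.35). Solyc11g031970.1 there read 1646 and 366 FPKM, Solyc11g031960.1 34.0 and 11.5 FPKM, and Solyc11g032050.1 12.6 and 4.84 FPKM, while Solyc11g031950.1 read 7.06 and 8.63 FPKM. Next came the windows from 32 to 33 Mb on chromosome 11 (median −1.07) and from 1 to 2 Mb on chromosome 2 (median −1.06), each with 2 of 4 genes lower. In the latter, Solyc02g005180.2 read 288 and 129 FPKM and Solyc02g005210.2 241 and 77.9 FPKM.

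The highest median, 1.51, belonged to the window from 10 to 11 Mb on chromosome 9, where 3 of 5 genes were higher. Besides Solyc09g015650.2, listed at 0 in wild type, these were Solyc09g015770.2 (4.0 and 24.8 FPKM) and Solyc09g015700.2 (1.15 and 5.14 FPKM). From 53 to 54 Mb on chromosome 1, 4 of 8 genes were higher and 1 lower (median 1.01). Of these 4, Solyc01g057490.2 was listed at 0 in wild type and Solyc01g057270.2 read 0.185 FPKM there. Solyc01g057260.2, the most abundant there, read 149.8 and 49.0 FPKM, whereas Solyc01g057480.1 read 1.41 and 8.74 FPKM. The window from 22 to 23 Mb on chromosome 4 followed, with 2 of 4 genes higher (median 0.88). In each of these 6 windows at least 1 gene was under 2-fold, and none moved as a block.

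Adjacent genes within a window did not share their differences more in sparse than in dense windows. Over 857 pairs of adjacent tested sparse-window genes, with a median gap of 72963 bp, Pearson's r between the differences was 0.017, given as a description across pairs that share libraries. It was 0.073 over 12851 pairs in dense windows, with a median gap of 4436 bp. Both genes were higher in 9 sparse pairs (1.05%), both lower in 19 (2.22%) and opposite in 24 (2.80%), against 1.71%, 2.77% and 3.16% of dense pairs.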

How the data were processed

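Total RNA of young primary leaves was extracted with TRIzol, and libraries followed Illumina's standard procedure, per the labels' protocols. Reads were aligned with TopHat, per the submitters' processing notes. No source used here names its version, the counting tool, the annotation or the build. The authors deposited FPKM for each locus and library, per the file headers, and 0 value columns were left unused. Coordinates are those of the table.

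Windows, spans, medians and differences were computed with Python 3.11.15, numpy 2.4.6 and pandas 2.3.3, and were tested on simulated data. Differences used a pseudocount of 1, which understates the change of low genes. Scaling totals came from gene-free, unstranded loci of at least 300 bp: with an offset of 199 bp, 90.5% of 581 low values of the overexpressor and 93.0% of 1275 of wild type lay within 0.05 of a whole fragment. A share near this size is partly due to choosing the best fit. The number of fragments limits precision, and no count test was run.

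The genes, lists and settings were chosen with earlier results of these data known. Named genes were up to 30 symbols with the largest differences, the 6 largest differences in each direction, the 6 highest levels, up to 6 genes alone in their window, the 4 longest spans, up to 4 genes at 0 in 1 library, and the 3 windows with the highest and the lowest medians. Loci joining several genes, unplaced loci and gene-free loci were left out of the comparison. Other pseudocounts, filters, scalings, window limits and chromosomes left out were tried. The values of 1 gene with a symbol are not reported here.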

Additional observations from a re-analysis of the deposited data

How the results depend on the processing

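Of 147 values recomputed under other settings, 101 stayed within their limits, which were 1.5 times the value for a share called and the 95% binomial interval of the median otherwise. All 120 values with 1 chromosome left out did so too. Without 1 chromosome, the median difference ran from −0.08 to −0.07 in sparse and from −0.06 to −0.05 in dense windows, the share higher from 9.37% to 10.1% and from 11.4% to 11.8%, and the share lower from 15.4% to 16% and from 14.7% to 15.0%. The median level ran from 16.1 to 16.6 FPKM in sparse and from 16.1 to 16.6 FPKM in dense windows, and the median span from 4379 to 4477 bp and from 3808 to 3866 bp. Shifted or 2 Mb windows and other window limits moved no value past these limits. At a filter of 5 FPKM the medians were −0.16 (sparse) and −0.14 (dense). With wild type scaled to equal upper quartiles they were 0.15 and 0.18. Scaled without the 100 most abundant gene loci they were 0.52 and 0.54, with 23.9% and 26.0% higher and 6.82% and 6.22% lower. At equal sums they were 2.18 and 2.24, with 93.5% and 93.3% higher and 0.162% and 0.253% lower, and these shifts follow from the scaling factor itself. Within level classes of 1 to 5, 5 to 20, 20 to 100 and at least 100 FPKM, the sparse medians were 0.46, 0.0124, −0.27 and −0.90 and the dense medians 0.44, 0.0247, −0.19 and −0.62. In the lowest class 24.9% (sparse) and 26.6% (dense) were higher and 4.69% and 6.65% lower. In the next 10.2% and 8.31% were lower, in the third 5.61% and 7.63% were higher, and in the highest 4.14% and 6.38% were higher and 44.8% and 39.3% lower. By span, the sparse medians were −0.16, −0.0144, −0.0585 and −0.0988 in the 4 classes, and the dense medians −0.0345, −0.0257, −0.0833 and −0.0116. Limits of the median difference ran from −0.130 to −0.0144 in sparse and from −0.0718 to −0.0376 in dense windows. They are narrower in the larger set, so passing them does not mean a larger shift. The shares higher were 17.4% and 20.6% under 1 kb, 16.1% in sparse windows at 1 to 3 kb, and 4.59% and 7.02% at 8 kb or more. The cause of these moves with level and span was not tested. Leaving out loci under 400 bp, or loci overlapping another gene locus, both chosen after seeing the data, moved no value past its limit. No paired analysis was possible because each genotype had 1 library.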

Other observations

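Sparse windows held other loci that the comparison left out. Loci without a gene numbered 965, or 69.1 for every 100 gene loci, against 18.9 for every 100 in dense windows, although dense windows held more of them per window (14.4 against 2.47). Their median level was 6.65 FPKM and their median span 480 bp, and 82.8% carried no strand. Of 934 tested, 23.8% were at least 2-fold higher and 16.6% lower in the overexpressor, next to 27.0% and 14.8% of 2518 in dense windows. The 61 windows without a gene locus held 28 such loci, with a median level of 9.25 FPKM.

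Loci that join 2 or more genes made up 156 of the 1397 gene loci in sparse windows (11.2%) and 532 of 13694 in dense windows (3.88%). Those in sparse windows had a median span of 20331 bp, against 8511 bp in dense windows, and a median level of 14.4 FPKM. Of 154 tested, 9 (5.84%) were at least 2-fold higher and 28 (18.2%) lower, against 58 and 85 of 527 in dense windows and 11.6% and 15.0% of all gene loci. Other loci lay wholly inside some sparse-window genes: 120 (9.67%) contained a locus without a gene, against 6.48% of dense-window genes, and 3 contained another gene locus.

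The 95 single-gene loci on unplaced sequence, which belong to no window, had a median span of 2091 bp and a median level of 16.2 FPKM, and 15 of 94 tested (16%) were at least 2-fold higher and 21 (22.3%) lower, against 11.6% and 15.0% of all gene loci.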
